A study of Mus musculus with 35 samples.

Results

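The 10 genes of the muscle cell membrane and of calcium handling described here were followed across 3 RNA-seq experiments on neuroectoderm (NE) cells. They are Dag1, Utrn, Sgcb, Bin1, Dysf, Cacna1c, Atp2a2, Hrc, Flnc and Des. They were picked out by gene symbol, and all 10 were listed and passed the filter on low values in each experiment, out of 18930 genes listed in at least 1 of them. Every group below derived from V6.5 mouse embryonic stem cells (ESCs), a male line of mixed inbred background, that lost LIF and received 1 µM retinoic acid (RA) to become NE. Tet3+/+ cells carried unedited Tet3. Tet3m/m cells carried amino acid substitutions in the iron-binding site of TET3 that remove its enzymatic activity, and Tet3-/- cells lacked exon 4 of Tet3, which leaves the transcript out of frame. TET3 oxidizes 5-methylcytosine and is induced when ESCs differentiate. The day 3 experiment had 3 Tet3+/+, 3 Tet3m/m and 2 Tet3-/- samples, which were independent clones harvested at 72 h. The Dnmt1 experiment had 2 samples for each genotype with empty vector and 2 with myc-tagged Dnmt1, the maintenance DNA methyltransferase, transfected at day 0 and followed by blasticidin selection. The Tet3-CD experiment had 1 sample for each genotype with empty vector and 1 with the HA-tagged wild-type catalytic domain of TET3 (Tet3-CD), transfected during differentiation.

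Muscle fibres contract when a calcium signal spreads from the cell surface along inward folds of the membrane, the T-tubules, to the sarcoplasmic reticulum, and they need a membrane anchored firmly enough to survive the pull. The dystrophin-glycoprotein complex ties the extracellular matrix to the cytoskeleton through the membrane, ferlins reseal it when it tears, and filamins and desmin hold the contractile apparatus in place at the Z-disc. Most of these genes are best known from muscular dystrophies and cardiomyopathies, but several also act in cells that are not muscle.

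Values are read counts that the authors normalized with DESeq2, written here as normalized counts. A gene was called where the adjusted p of limma was under 0.05 and the change exceeded 1.5-fold. The 26 samples held 31155842 to 50845950 reads assigned to genes, as recovered from the normalized counts. Tet3 itself, as a check of the labels, fell by 1.05 on the log2 scale in Tet3m/m and by 1.21 in Tet3-/- on day 3. With empty vector in the Dnmt1 experiment it fell by 1.53 in Tet3m/m but by no more than 0.24 in Tet3-/-, with 2520.3 and 2571 normalized counts against 2957 and 3075 in Tet3+/+. The Tet3-/- allele lacks 1 exon only, so a count over the whole gene checks it in part. The Tet3m/m substitutions leave a transcript, which the study found reduced by RT-qPCR, so its fall checks that label only indirectly. The study describes its replicates in general as biological, but the labels do not say whether the 2 samples of a group in the Dnmt1 experiment came from separate cultures. Its p-values then measure the spread between these samples, which may be technical. Because bulk RNA was sequenced, fewer cells of a type and less RNA per cell cannot be told apart.

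Of 23 muscle marker genes, 18 were listed on day 3, but the muscle regulators Myod1, Myog, Myf5 and Myf6 and the muscle creatine kinase Ckm were in none of the 3 tables. The summed level of the muscle list ranged from 3766 to 7959 normalized counts in Tet3+/+, from 5301 to 11117 in Tet3m/m and from 12808 to 17930.0 in Tet3-/- on day 3. Of these 18 genes, 6 were called in Tet3m/m (33.3%) and 0 in Tet3-/-, against 10.2% and 0.642% of all genes. Means were lower for 5 of the 18 in Tet3m/m and for 4 in Tet3-/-. The part of the muscle list in the results below was not tested. All 14 neuroectoderm markers were listed, with sums of 26676 to 35864 in Tet3+/+, 21856 to 27455 in Tet3m/m and 33648 to 39117 in Tet3-/-. Most of them had lower means in both mutants, 13 of 14 in Tet3m/m (8 fell and none rose, median -1.03 on the log2 scale) and 11 of 14 in Tet3-/- (2 fell and 1 rose, median -0.87). Those called were 57.1% and 21.4% of the list, against 10.2% and 0.642% of all genes.

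The promoters of Hrc, Flnc and Dysf, the 3 genes called in Tet3m/m on day 3, are shown because the study asked how loss of TET3 activity, and with it DNA demethylation, acts on genes. Each line gives the 250 bases before a transcription start from RefSeq (GRCm38.p6), on the plus strand, with the CG dinucleotides that can carry methylation in capitals. Hrc lies before a start on chromosome 7 (chr7:45335019-45335268), Flnc on chromosome 6 (chr6:29432903-29433152), and Dysf has starts A (chr6:84008348-84008597) and B (chr6:84019136-84019385).
Hrc: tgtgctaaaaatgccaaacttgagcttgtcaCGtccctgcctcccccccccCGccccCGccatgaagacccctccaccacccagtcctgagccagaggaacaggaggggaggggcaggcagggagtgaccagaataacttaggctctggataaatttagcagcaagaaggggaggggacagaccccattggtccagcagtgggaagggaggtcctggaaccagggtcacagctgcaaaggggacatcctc
Flnc: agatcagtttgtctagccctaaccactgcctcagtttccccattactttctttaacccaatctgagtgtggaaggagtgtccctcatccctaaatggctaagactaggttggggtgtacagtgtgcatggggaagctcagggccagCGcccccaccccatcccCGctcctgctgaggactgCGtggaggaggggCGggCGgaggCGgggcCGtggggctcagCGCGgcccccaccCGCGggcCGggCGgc
Dysf start A: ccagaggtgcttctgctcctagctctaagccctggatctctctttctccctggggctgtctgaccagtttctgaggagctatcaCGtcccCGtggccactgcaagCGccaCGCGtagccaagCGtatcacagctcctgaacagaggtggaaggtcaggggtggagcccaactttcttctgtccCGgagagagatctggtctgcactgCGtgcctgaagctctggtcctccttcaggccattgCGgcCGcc
Dysf start B: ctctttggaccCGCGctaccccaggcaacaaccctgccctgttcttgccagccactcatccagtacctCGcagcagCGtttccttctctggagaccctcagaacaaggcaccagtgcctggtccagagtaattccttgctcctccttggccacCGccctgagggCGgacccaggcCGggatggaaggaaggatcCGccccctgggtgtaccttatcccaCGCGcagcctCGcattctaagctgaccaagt

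The Hrc window holds 3 CG dinucleotides, below the median of 6 over 32851 promoter windows of this length. The Flnc window holds 13, and the window of a second listed Flnc start, which overlaps it and is not printed, holds 24. The Dysf windows hold 10 and 11. The myogenic E-box (CANNTG, which reads the same on both strands) occurs in 66.2% of all windows, once in the Hrc window and in none of the Flnc and Dysf windows. The MEF2 motif and the serum response CArG box, searched on both strands, occur in 2.92% and 1.47% of all windows and in none of the 13 windows of the 8 genes that matched by symbol. Bin1 and Atp2a2 were not matched.

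In Tet3+/+ cells on day 3 the 10 genes spanned a wide range of levels. Per kb of the longest transcript, Dag1, which encodes dystroglycan, was highest at 5069.9 ± 62.3 normalized counts (SD, n = 3). Atp2a2, which encodes the SERCA2 pump that returns calcium to the reticulum, followed with 3172 ± 227. Flnc (1761 ± 378) and Bin1 (1354 ± 184) came next and their samples overlapped. Utrn (556 ± 33.9) and Des (401 ± 53.9) each stood apart from their neighbours in this order. Sgcb (192 ± 6.13) and Dysf (191, samples from 178 to 201) overlapped, Hrc stood at 80.3 ± 20.7, and Cacna1c was lowest at 8.76 ± 1.11.

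In Tet3m/m cells on day 3, the membrane repair gene Dysf, the Z-disc gene Flnc and the reticulum gene Hrc fell. These were 3 of the 10 genes, all lower, where 10.2% of all 17915 genes tested were called. The median change of the 10 was -0.18 on the log2 scale, against 0.00081 over all genes. Dysf encodes dysferlin, a calcium sensor of membrane resealing. The Tet3+/+ samples had 1329, 1210.4 and 1367 normalized counts of Dysf and the Tet3m/m samples 424, 315 and 196, so the groups lay far apart. Its log2 fold change was -2.13 ± 0.23 (SE; adjusted p = 0.000351), the largest of the 10. Flnc encodes filamin C, which crosslinks actin at the Z-disc and the membrane. It had 18019, 11978 and 17761 normalized counts in Tet3+/+ and 11403, 8333 and 5915 in Tet3m/m. The highest Tet3m/m sample lay just below the lowest Tet3+/+ sample, and the log2 fold change was -0.92 ± 0.23 (adjusted p = 0.0231). Hrc encodes the histidine-rich calcium-binding protein of the reticulum lumen. It had 201, 239 and 140.4 normalized counts in Tet3+/+ and 105.5, 112 and 85.5 in Tet3m/m, again without overlap. The fitted change of Hrc was -0.91 ± 0.26 on the log2 scale (adjusted p = 0.0414). The call of Hrc was lost without any 1 of 5 of the 6 samples (adjusted p of 0.0669 to 0.154), and that of Flnc without 1 of 3 of them (0.0667 to 0.0922). With replicate 1 of Tet3+/+ or replicate 2 of Tet3m/m left out, Dysf was the single gene called.

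The other 7 genes were not called in Tet3m/m. Sgcb, which encodes beta-sarcoglycan, came nearest with 739, 741 and 699.8 normalized counts in Tet3+/+ and 506, 533 and 512 in Tet3m/m. Its groups did not overlap, and its log2 fold change of -0.49 ± 0.12 had an adjusted p of 0.0200 but stayed under 1.5-fold. Des, which encodes the intermediate filament protein desmin, spread most in Tet3m/m, with 2156, 1582 and 1092 normalized counts against 1387, 1063 and 1191 in Tet3+/+. The log2 fold changes of Bin1, Cacna1c, Dag1, Utrn, Atp2a2 and Des lay between -0.22 and 0.36, with adjusted p of 0.297 to 0.821. Without replicate 3 of Tet3m/m, Des was called as higher (0.61, adjusted p = 0.0360). Replicate 3 of Tet3m/m held the lowest value of all 8 day 3 samples for 6 of the 10 genes.

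**Figure D1:**
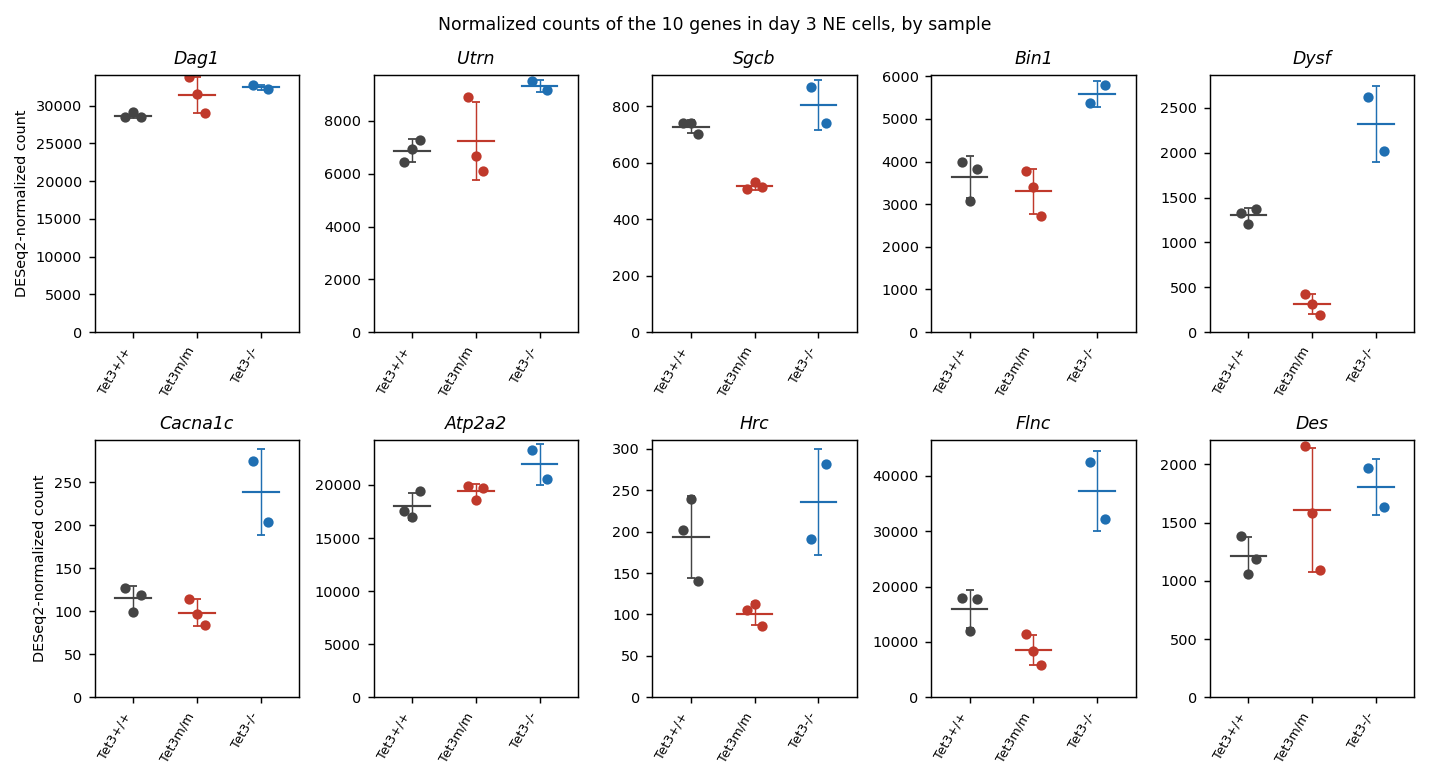
Normalized counts (linear axis from 0) of the 10 genes in the 8 day 3 samples. Points are samples (3 Tet3+/+, 3 Tet3m/m, 2 Tet3-/-), and bars are the mean and SD. Dysf, Flnc, Hrc and Sgcb of Tet3m/m lie below every Tet3+/+ sample.

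In Tet3-/- cells on day 3, all 10 genes had higher means than in Tet3+/+, but none was called, where 0.642% of all genes tested were. The median change was 0.51 on the log2 scale, against -0.014 over all genes, and 7 of the 10 had an unadjusted p under 0.05, as 20.1% of all genes did. Flnc had 42417 and 32142 normalized counts, both above every Tet3+/+ sample, and a log2 fold change of 1.24 ± 0.26 (adjusted p = 0.0514). Cacna1c, the pore subunit of the L-type calcium channel that couples excitation to calcium entry, had 275 and 204 normalized counts against 127, 99.0 and 120 in Tet3+/+. The fitted difference of Cacna1c was 1.04 ± 0.26 on the log2 scale (adjusted p = 0.0719). Bin1, whose product bends membranes into T-tubules, had 5371 and 5795 normalized counts against 3989.9, 3069.99 and 3836 (log2 fold change 0.63 ± 0.15, adjusted p = 0.0673). Dysf had 2619 and 2017 normalized counts, also above all Tet3+/+ samples (0.82 ± 0.26, adjusted p = 0.123). For Utrn, which encodes the dystrophin homologue utrophin, the values were 9498 and 9162 against 6438, 6925 and 7274 (0.44 ± 0.14, adjusted p = 0.130). Des (0.57), Atp2a2 (0.29) and Dag1 (0.18) had smaller log2 fold changes, each with both Tet3-/- samples above Tet3+/+. Only Hrc and Sgcb had Tet3-/- samples within the Tet3+/+ range, with log2 fold changes of 0.29 and 0.14. Whether the samples of groups lay apart is described for the 10 genes only, here and elsewhere, without the share over all genes. The count of calls depended on the tool: edgeR's quasi-likelihood test gave 0 and DESeq2 gave 4 (Flnc, Cacna1c, Bin1 and Dysf, with adjusted p of 0.000169 to 0.0186). Calls over all 17915 genes changed too, from 115 with limma to 86 with edgeR and 917 with DESeq2. Leaving out replicate 1 of Tet3m/m, which enters this contrast only through the shared spread, also gave these 4, and leaving out replicate 3 gave Flnc, Bin1 and Dysf. Over all genes, 706 were called without replicate 1 of Tet3m/m, 0 without replicate 2 and 568 without replicate 3.

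The mutants were also set against each other. Of the 10 genes, 6 were higher in Tet3-/- than in Tet3m/m and called, where 9.73% of all genes were. Dysf differed by 2.95 ± 0.26 on the log2 scale (adjusted p = 0.000351), Flnc by 2.16 ± 0.26 (0.00082), Cacna1c by 1.26 ± 0.26 (0.0117) and Hrc by 1.198 ± 0.29 (0.0237). Bin1 (0.77 ± 0.15, adjusted p = 0.00966) and Sgcb (0.63 ± 0.13, adjusted p = 0.0123) differed by less. Utrn (0.39), Des (0.21), Atp2a2 (0.17) and Dag1 (0.05) were not called. These values use the same samples as the contrasts with Tet3+/+. Without replicate 2 of Tet3-/-, Bin1 and Hrc were no longer called (adjusted p of 0.0564 and 0.136), and without replicate 1 Sgcb and Cacna1c were not (0.0801 and 0.0844), so that 4 genes were called either way. Hrc was also not called without replicate 3 of Tet3m/m (adjusted p = 0.0599). The marker lists differed in this contrast to unlike degrees. The pluripotency list summed to 9592 to 23981 normalized counts in Tet3m/m against 7466 to 10083 in Tet3-/-, ranges that overlap. All 10 of its genes had lower means in Tet3-/- and none was called. The fibroblast list summed to 18015 to 28288 against 51053 to 55029.5, with 3 of 12 genes called (25%). Of the endoderm list, 8 of 12 genes were called (66.7%, against 9.73% of all genes) and 8 had lower means in Tet3-/-. Its sums overlapped, at 72867 to 105913 against 94999.6 to 98553. The part of cell composition in these differences was not tested.

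Flnc and Dysf lie on chromosome 6 among genes that were themselves lower in Tet3m/m. Of the 100 tested genes nearest to Flnc, 91 had a log2 fold change below 0 on day 3, with a median of -0.80, and 86 of the 100 nearest to Dysf did, with a median of -0.81. The shift was present in each Tet3m/m sample, with neighbour medians of -0.72, -0.80 and -0.86 around Flnc and -0.84, -0.83 and -0.75 around Dysf. The change of Flnc, -0.92, lay near the neighbour median, and 41 of the 100 neighbours had lower values. After each sample was centred on these neighbours, Flnc stood at -0.12 ± 0.21 (adjusted p = 0.760) and was not called. Dysf fell further than 97 of its 100 neighbours and remained called after centring, at -1.33 ± 0.26 (adjusted p = 0.00781). Between Tet3-/- and Tet3m/m, centring took Flnc from 2.16 to 1.19 and Dysf from 2.95 to 2.19, and both were still called (adjusted p of 0.00952 and 0.00183). Cacna1c, farther along chromosome 6, had neighbours with a median of 0.15. Around the 8 genes other than Flnc and Dysf, the neighbour median stayed between -0.14 and 0.22 in all 15 comparisons. The part of the chromosomal stretch in the fall of Flnc and Dysf was not tested beyond this.

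**Figure D2:**
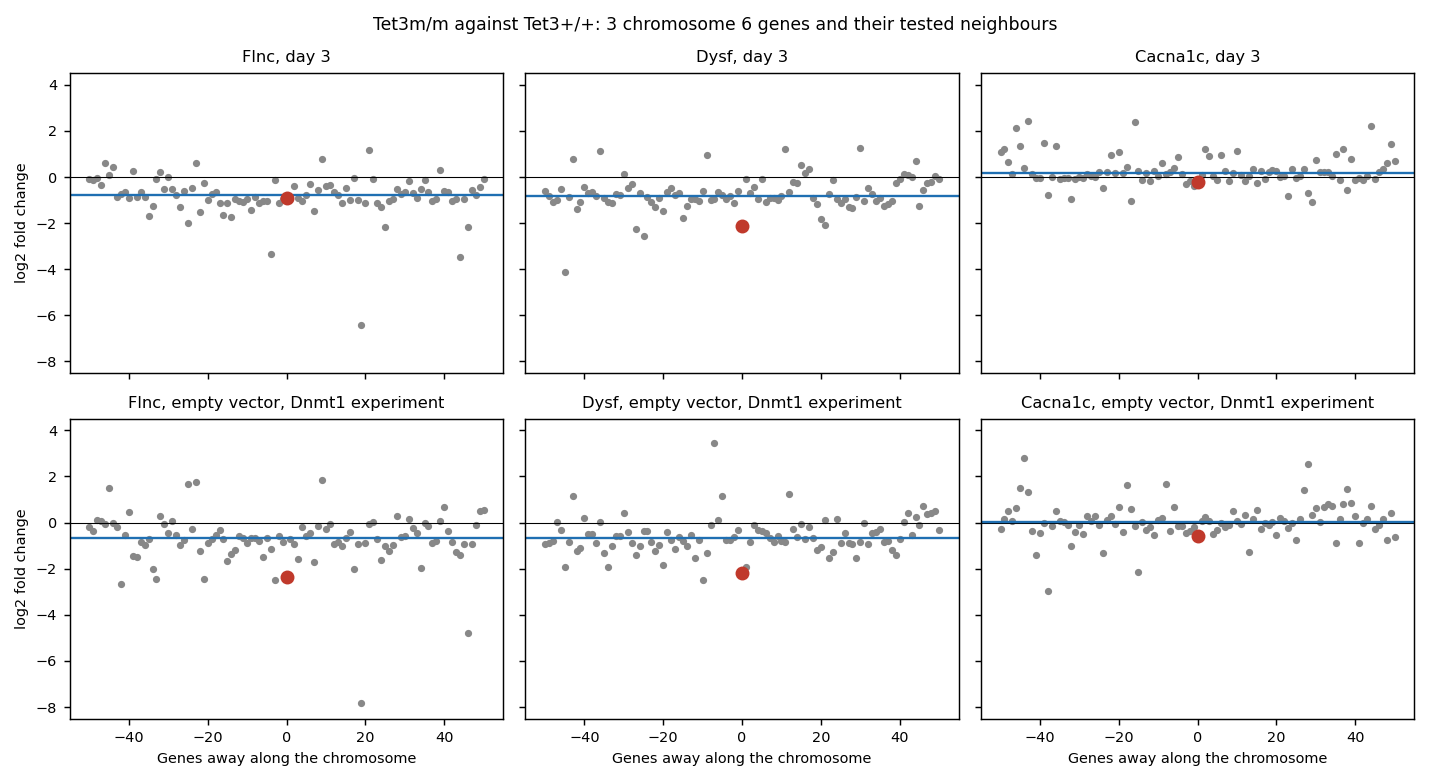
Log2 fold change (Tet3m/m against Tet3+/+) of Flnc, Dysf and Cacna1c (red) and of the 50 tested genes on each side (grey), by order along chromosome 6, on day 3 (top) and with empty vector in the Dnmt1 experiment (bottom). Blue lines are the neighbour medians, at -0.80, -0.81 and 0.15 on day 3, so that the neighbours of Flnc and Dysf lie mostly below 0 and those of Cacna1c do not.

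The empty-vector samples of the Dnmt1 experiment gave a second set of libraries of the same genotypes. In Tet3m/m 5 of the 10 genes fell, Flnc, Dysf, Hrc, Des and Bin1, where 21.2% of all 18055 genes tested were called in either direction. The median of the 10 was -0.65 on the log2 scale, against 0.0068 over all genes. Flnc had 9513 and 9552 normalized counts in Tet3+/+ and 1913 and 1840.2 in Tet3m/m, a change of -2.34 on the log2 scale ± 0.05 (adjusted p = 1.79e-18). Dysf had 1023 and 1041 against 239 and 214 (-2.19 ± 0.08, adjusted p = 5.24e-15). Hrc had 219 and 225 against 96.0 and 92.5 (-1.23 ± 0.20, adjusted p = 2.29e-05). Here Des fell as well, from 2071 and 2099 normalized counts to 1009.9 and 914 (-1.12 ± 0.08, adjusted p = 1.37e-10), while on day 3 its Tet3m/m samples lay on both sides of the Tet3+/+ ones. Bin1 had 2354 and 2412 against 1429 and 1472 (-0.72 ± 0.07, adjusted p = 6.34e-08). Atp2a2 was the 1 gene with a higher mean, 24816 and 23877 normalized counts against 18213 and 17591, under 1.5-fold (0.44 ± 0.04, adjusted p = 3.39e-08). Sgcb (-0.53), Dag1 (-0.21) and Utrn (-0.16) had adjusted p of 0.000157, 0.000237 and 0.0135 without reaching 1.5-fold, and Cacna1c (-0.58) had an adjusted p of 0.0553. Neighbour medians were -0.68 around Flnc and -0.69 around Dysf, and both genes were still called after centring on them, at -1.70 and -1.56 on the log2 scale.

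In Tet3-/- cells with empty vector, 5 genes rose, Flnc, Dysf, Bin1, Cacna1c and Sgcb, where 24.9% of all genes were called in either direction. The median of the 10 was 0.55, against 0.0034 over all genes. Flnc reached 28839 and 29449 normalized counts (log2 fold change 1.61 ± 0.05, adjusted p = 1.26e-15) and Dysf 2105 and 2169.95 (1.05 ± 0.08, adjusted p = 1.12e-09). Bin1 had 4303 and 4126 normalized counts (0.82 ± 0.07, adjusted p = 8.25e-09). Cacna1c had 152 and 154 against 92.9 and 87.0 in Tet3+/+ (0.76 ± 0.24, adjusted p = 0.0110). Sgcb had 704 and 743 against 487 and 465 (0.60 ± 0.10, adjusted p = 2.95e-05), a change just above 1.5-fold. Without 1 of the Tet3+/+ samples or without replicate 2 of Tet3-/-, Cacna1c and Sgcb were not called and 3 genes were. Dag1 (0.39), Utrn (0.35) and Hrc (0.50) had adjusted p under 0.05 without reaching 1.5-fold. Atp2a2 (0.11) had an adjusted p of 0.0508. Des alone was lower, at 1651 and 1684 normalized counts (-0.32 ± 0.08, adjusted p = 0.00165). Marker lists moved with these genotypes. The pluripotency list summed to 29328 to 30010.1 normalized counts in Tet3+/+, 78286 to 79149 in Tet3m/m and 7114 to 7727 in Tet3-/-, and the muscle list to 4929 to 5547, 1798 to 1888 and 9717 to 9966. The part of cell composition was not tested.

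**Figure D3:**
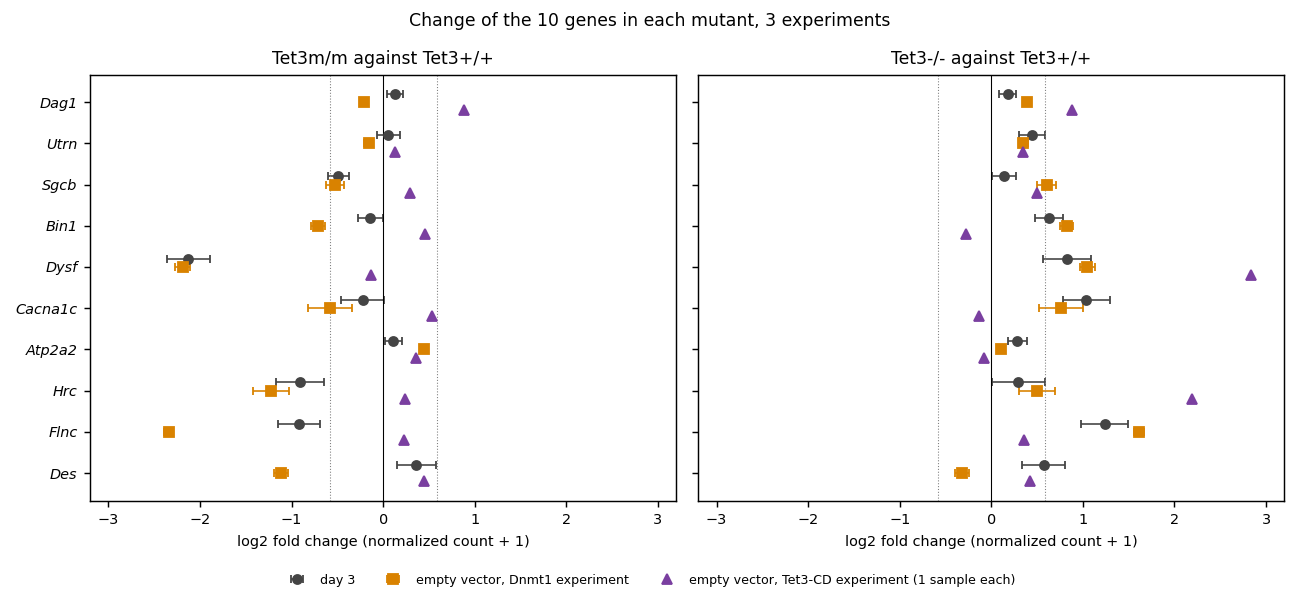
Log2 fold change of the 10 genes in Tet3m/m (left) and Tet3-/- (right) against Tet3+/+ on day 3 (3, 3 and 2 samples) and with empty vector in the Dnmt1 experiment (2 per group) and the Tet3-CD experiment (a single sample each, no error). Bars are the SE of the limma fit and dotted lines mark 1.5-fold. Dysf of Tet3m/m lies near -2.13 and -2.19 in the replicated experiments and at -0.13 in the Tet3-CD experiment.

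The Dnmt1 vector addressed how added maintenance methyltransferase alters expression in each genotype. Dnmt1 itself rose by 0.64, 0.90 and 1.06 on the log2 scale in Tet3+/+, Tet3m/m and Tet3-/-. Of the 10 genes, none was called in Tet3+/+, where 1.17% of all genes were, and none in Tet3m/m, where 2.46% were. At an unadjusted p under 0.05 there were 4 and 5 of the 10, against 19.9% and 23.3% of all genes, and edgeR and DESeq2 called 0 in both. In Tet3-/- the reticulum gene Hrc was the 1 gene called, where 3.53% of all genes were. Hrc fell from 335 and 295 normalized counts with empty vector to 191 and 177 with Dnmt1 (-0.77 ± 0.20, adjusted p = 0.0115). Its means were also lower with Dnmt1 in the other genotypes, 134 and 195 against 219 and 225 in Tet3+/+ (-0.45 ± 0.20, adjusted p = 0.194) and 73.3 and 60.6 against 96.0 and 92.5 in Tet3m/m (-0.49 ± 0.20, adjusted p = 0.126). The effect on Hrc in Tet3-/- did not differ detectably from that in Tet3+/+ (difference -0.32 ± 0.28, adjusted p = 0.557). The call was lost without replicate 1 of the empty vector (adjusted p = 0.106) or without replicate 2 of Dnmt1 (0.0862).

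Flnc was higher with Dnmt1 in every genotype by small steps. It went from 9513 and 9552 to 10967 and 11047.0 normalized counts in Tet3+/+ (0.21 ± 0.05, adjusted p = 0.0276), from 1913 and 1840.2 to 2327 and 2315 in Tet3m/m (0.31 ± 0.05, adjusted p = 0.000726), and from 28839 and 29449 to 36159 and 42314 in Tet3-/- (0.42 ± 0.05, adjusted p = 2.08e-05). None of these reached 1.5-fold, and the samples of the 3 genotypes stayed apart with either vector. In Tet3+/+ and Tet3m/m the log2 fold changes were 0.06 and 0.19 for Dysf, -0.0060 and 0.17 for Bin1, and 0.12 and 0.098 for Utrn, with adjusted p of 0.175 to 0.979. Dysf (0.37), Bin1 (0.27) and Utrn (0.22) had adjusted p of 0.00496, 0.0177 and 0.00516 in Tet3-/-, also under 1.5-fold. Des was lower with Dnmt1 in Tet3+/+ (1673 and 1639 against 2071 and 2099 normalized counts, -0.33, adjusted p = 0.0151) and in Tet3m/m (849 and 723 against 1009.9 and 914, -0.29, adjusted p = 0.0193), but higher in Tet3-/- (1823 and 2004 against 1651 and 1684, 0.20, adjusted p = 0.108). For Des the effect differed between Tet3-/- and Tet3+/+ by 0.53 ± 0.11 (adjusted p = 0.00403), under 1.5-fold. Sgcb, Dag1 and Atp2a2 had log2 fold changes of -0.07 to 0.19 with Dnmt1 over the 3 genotypes and Cacna1c of -0.24 to 0.47, with adjusted p of 0.263 to 0.999. None of the 10 genes was called for a difference in the Dnmt1 effect, where 0.604% of all genes were between Tet3m/m and Tet3+/+ and 3.99% between Tet3-/- and Tet3+/+. At an unadjusted p under 0.05 there were 0 and 5 of the 10, against 10.9% and 23.0% of all genes, and edgeR and DESeq2 called 0 in both contrasts. Marker lists also differed between the vectors. In Tet3-/- 60% of pluripotency, 33.3% of fibroblast and 16.7% of muscle genes were called, against 3.53% of all genes. The endoderm and neuroectoderm lists had 8.33% and 0%. In Tet3m/m the shares, in this order, were 10%, 41.7%, 22.2%, 0% and 28.6%, against 2.46%. The part of cell composition was not tested.

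**Figure D4:**
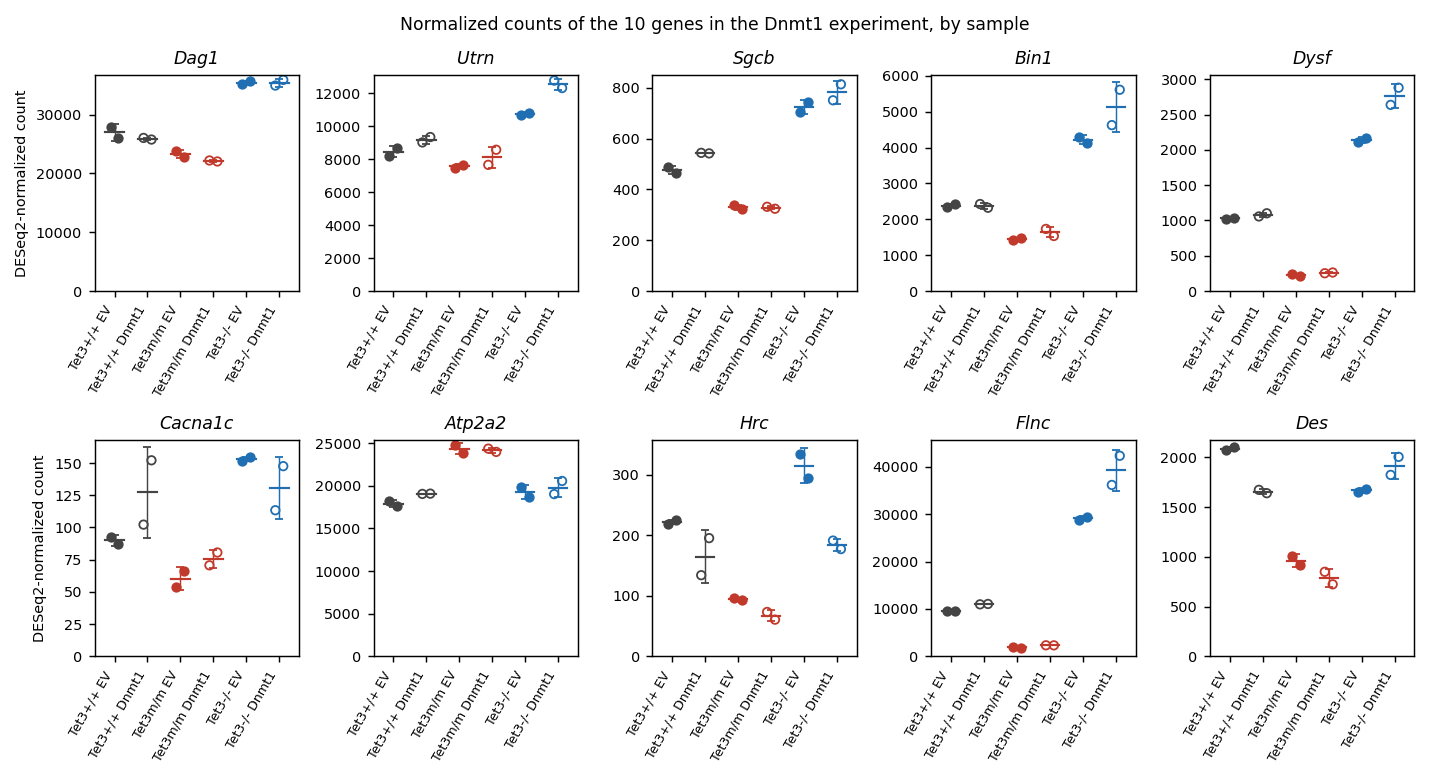
Normalized counts (linear axis from 0) of the 10 genes in the 12 samples of the Dnmt1 experiment, by genotype and vector (EV, empty vector, filled; Dnmt1, open). Points are samples, bars the mean and SD of 2. Flnc and Dysf separate the 3 genotypes with either vector, and Hrc of Tet3-/- drops from 335 and 295 to 191 and 177.

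With a single sample of every genotype and vector, the experiment with Tet3-CD allowed no test, and the folds below have no replicate check. The Tet3 count was 4755 normalized counts with empty vector and 5441 with Tet3-CD in Tet3+/+, 1850 and 5232 in Tet3m/m, and 2070 and 2759 in Tet3-/-. None of the 10 genes changed more than 1.5-fold with Tet3-CD in Tet3+/+, where 13.4% of all 17481 genes did, and none in Tet3m/m, where 10.1% did. In Tet3-/- 3 of the 10 did, where 21.5% of all genes did. Flnc went from 16614 to 28168 normalized counts (log2 ratio 0.76) and Bin1 from 2451 to 4041 (0.72), while Hrc went from 444 to 232 (-0.94). Marker sums differed between the same Tet3-/- samples. The endoderm list went from 207858 to 130483 normalized counts, the muscle list from 4511 to 10573 and the neuroectoderm list from 14356 to 21340. The part of cell composition was not tested. In Tet3+/+ all 10 log2 ratios were above 0, from 0.06 for Atp2a2 to 0.58 for Cacna1c, and in Tet3m/m they ran from -0.11 to 0.19.

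The differences between the genotypes seen above were only partly present with empty vector in this experiment. In Tet3m/m, 1 gene passed 1.5-fold, Dag1, where 36.3% of all genes did. Dag1 had 27938 normalized counts in Tet3m/m against 15114 in Tet3+/+ (log2 ratio 0.89). Flnc stood at 15166 against 12992 (0.22), Dysf at 660.1 against 724 (-0.13) and Hrc at 114 against 96.1 (0.24), none of them lower by 1.5-fold. Cacna1c (0.54), Bin1 (0.46), Des (0.45), Atp2a2 (0.36), Sgcb (0.30) and Utrn (0.12) also stayed under it. The genes around Flnc and Dysf were lower here as well, with neighbour medians of -0.86 and -0.69. In Tet3-/-, 3 genes passed 1.5-fold, where 27.1% of all genes did. Dysf had 5168 normalized counts (log2 ratio 2.83), Hrc 444 (2.20) and Dag1 27932 (0.89). Flnc (0.35), Bin1 (-0.28) and Cacna1c (-0.14), which were higher in Tet3-/- in the replicated experiments, did not pass, nor did Sgcb (0.50), Des (0.42), Utrn (0.35) and Atp2a2 (-0.08). Marker levels differed between the experiments. The endoderm list summed to 779234 normalized counts in Tet3+/+ with empty vector, 159129 in Tet3m/m and 207858 in Tet3-/-, against 62872 to 88849 in the day 3 Tet3+/+ samples. With empty vector in the Dnmt1 experiment it summed to 194470 to 202789 in Tet3+/+, 475123 to 529864 in Tet3m/m, where all 12 genes rose, and 78369 to 82442 in Tet3-/-, where 9 fell and 1 rose. Those called were 100% and 83.3% of the list, against 21.2% and 24.9% of all genes. The 3 tables were normalized separately, so levels set across them are a description. The part of cell composition was not tested.

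**Figure D5:**
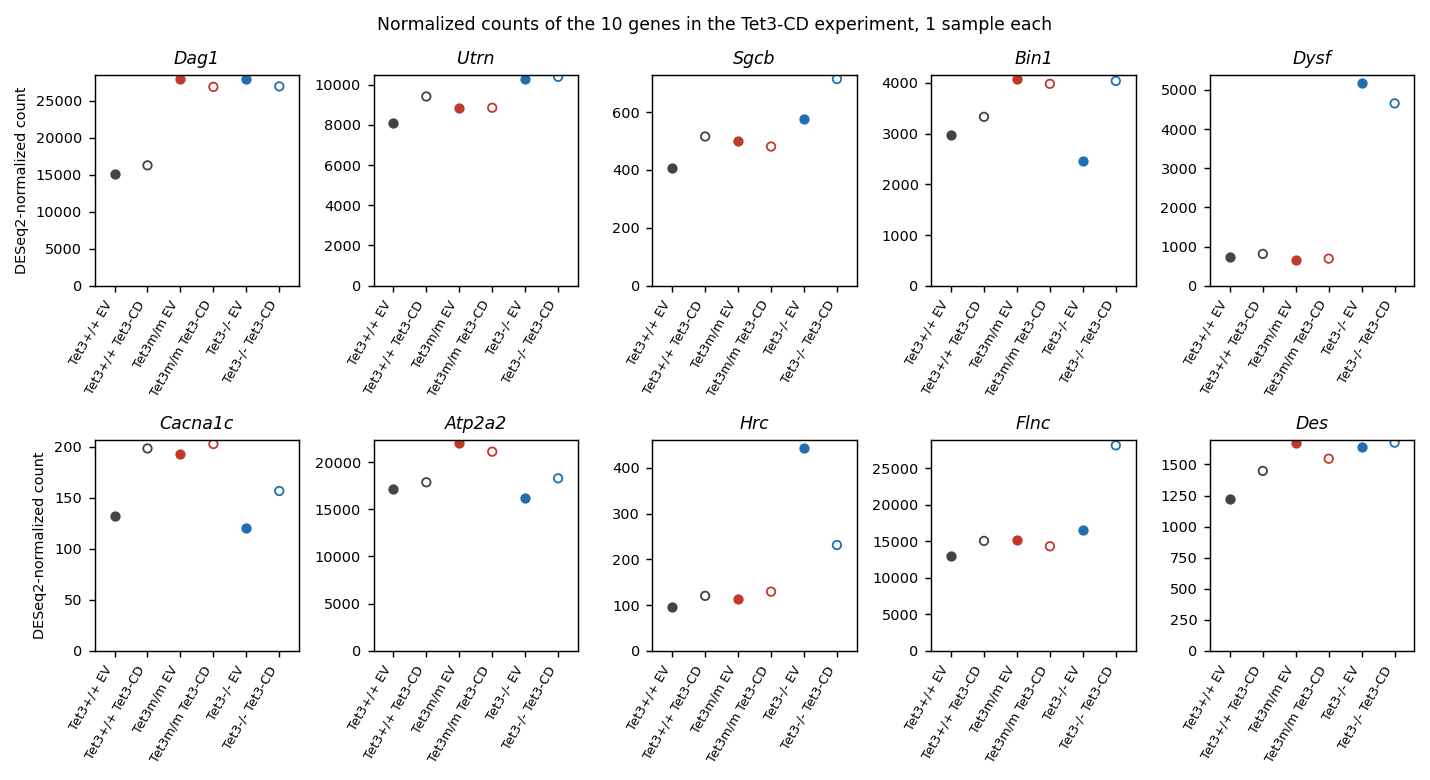
Normalized counts (linear axis from 0) of the 10 genes in the 6 samples of the experiment with Tet3-CD, a single sample each (EV, empty vector, filled; Tet3-CD, open). Dysf and Hrc are highest in Tet3-/- with empty vector, at 5168 and 444, and Flnc is highest in Tet3-/- with Tet3-CD, at 28168.

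The 4 lists of genes that work with the 10 place these changes among their partners, and each list contains some of the 10. In the list of the dystrophin-glycoprotein complex and its glycosylation, 18 of 22 genes were tested and 1 was called in Tet3m/m on day 3, the syntrophin gene Sntb1, which rose by 1.19 on the log2 scale, with a list median of -0.04. None of the list was called in Tet3-/-. On day 3 the calls were thus 5.56% and 0% of the list, against 10.2% and 0.642% of all genes. With empty vector in the Dnmt1 experiment 2 rose and 3 fell in Tet3m/m, and 1 rose and 2 fell in Tet3-/-. These were 27.8% and 16.7% of the list, against 21.2% and 24.9% of all genes.

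In the T-tubule and membrane repair list, 15 of 16 genes were tested. Dysf alone was called in Tet3m/m on day 3, and the list median was -0.01. In Tet3-/- on day 3 all 15 had higher means and none was called, with a list median of 0.76. The day 3 calls were 6.67% and 0% of the list, against 10.2% and 0.642% of all genes. With empty vector 7 fell and 1 rose in Tet3m/m. The annexin gene Anxa1 (-2.66), the junctophilin gene Jph2 (-2.66) and Dysf (-2.19) fell most, and Mtm1 (0.63) rose. In Tet3-/- 9 rose and none fell. Ehd2 (1.78), Ahnak (1.48) and Anxa1 (1.31) rose most. The list medians were 0.09 and 0.82, so that in Tet3m/m the median lay above 0 while most of the called genes fell. The called genes were 53.3% and 60% of the list, against 21.2% and 24.9% of all genes.

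In the list of the sarcoplasmic reticulum and calcium handling, 31 of 34 genes were tested on day 3, of which 3 rose and 2 fell in Tet3m/m. The voltage sensor gene Cacna1s (1.53), the inositol trisphosphate receptor gene Itpr2 (1.18) and Cacna2d1 (0.68) rose, and Calu (-1.14) and Hrc fell. Cacna2d1 alone (1.04) was called in Tet3-/-. Calls on day 3 made up 16.1% and 3.23% of the list, against 10.2% and 0.642% of all genes. With empty vector 6 rose and 5 fell in Tet3m/m, and 7 rose and 2 fell in Tet3-/-, where Cacna1s (-2.63) and Itpr2 (-1.28) were those that fell. The called genes were 36.7% and 30.0% of the list, against 21.2% and 24.9% of all genes.

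In the list of filamins, intermediate filaments and Z-disc genes, 22 of 24 were tested on day 3. Flnc was the 1 gene that fell in Tet3m/m, while 4 rose, among them Pdlim5 (0.90) and Actn1 (0.88). In Tet3-/- 4 rose, among them Pdlim5 (1.36) and Pdlim7 (0.94), with a list median of 0.88. These day 3 calls were 22.7% and 18.2% of the list, against 10.2% and 0.642% of all genes. With empty vector 6 fell and none rose in Tet3m/m, Flnc, Vim (-1.13) and Des most, and 15 rose and 2 fell in Tet3-/-, with medians of -0.38 and 0.74. The called genes were 28.6% and 81.0% of the list, against 21.2% and 24.9% of all genes. The median over all genes lay between -0.014 and 0.0068 in these 4 comparisons.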

How the data were processed

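RNA-seq libraries of 26 samples were analysed. The authors trimmed reads with Trim Galore 0.6.7, aligned them with STAR 2.7.9a, counted them per gene with featureCounts and deposited DESeq2 size-factor normalized counts, a signal scale rather than raw counts. The study's methods and the labels name different mouse builds. Whole reads were recovered from 100% of values (tolerance 0.01) and gave depths of 36594650 to 47710548 (day 3), 31155842 to 50845950 (Dnmt1 experiment) and 33475041 to 37707719 (Tet3-CD experiment). The 3 tables were normalized separately, so tests were made only within a table.

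Genes with a mean of at least 10 normalized counts were tested with limma 3.58.1 (R 4.3.3) on log2(value + 1), with all groups of an experiment in 1 fit, empirical Bayes with trend and Benjamini-Hochberg adjustment over all genes. Fold changes are on this scale, which understates those of low genes. A gene was called at an adjusted p under 0.05 and a fold above 1.5. With 1 sample per group, as with Tet3-CD, log2 ratios are given without a test. Alternatives were edgeR 4.0.16 and DESeq2 1.42.0 on the recovered reads, TMM scaling, a pseudocount of 5, no filter, no fold threshold, only the compared groups, a block for the replicate number, leaving out 1 replicate at a time, and centring on the 50 tested genes on each side (gene order from GENCODE vM21). The scripts were tested on simulated data. Replicates differed by more than sampling noise in every group that had them, but to unlike degrees. The chi-square per degree of freedom, near 1 for sampling alone, was 13.5 to 85.1 between day 3 replicates. In the Dnmt1 experiment it was 3.90 to 10.7, and 3.90 to 4.35 for the empty-vector pairs. Promoter sequences came from RefSeq (GRCm38.p6), with 8 of the 10 genes matched.

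The 10 genes and the lists (4 pathway lists, and markers of muscle, neuroectoderm, fibroblasts, endoderm and pluripotent cells) were chosen with earlier results of these data known. The 10 genes are described in each comparison, by name or by their range, and of a pathway list at most 3 called genes per direction, by size of change, except that 1 gene is not reported here.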

Additional observations from a re-analysis of the deposited data

Results flagged for a closer look

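In the replicated experiments Des differed in direction between genotypes and between experiments. The effect of Dnmt1 on Des differed between Tet3-/- and Tet3+/+ by 0.53 on the log2 scale (limma interaction term, adjusted p = 0.00403), with lower values under Dnmt1 in both Tet3+/+ samples and higher values in both Tet3-/- samples. Des was the 1 gene of the 10 with an adjusted p under 0.05 for this term, where 9.71% of all genes had one. Without replicate 1 of Tet3-/- with Dnmt1, which leaves 1 sample in that group, the difference was 0.60.

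Des in Tet3-/- against Tet3+/+ was 0.57 on day 3 and -0.32 with empty vector in the Dnmt1 experiment, and was called in neither. All Tet3-/- samples lay above Tet3+/+ in the first and below it in the second. The difference between the experiments was not tested.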

How the results depend on the processing

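Of 1080 values recomputed with a replicate left out, 1027 kept their direction and side of the threshold, 9 passed it newly, 19 no longer passed it and 25 changed sign. Of 1000 under the other alternatives these counts were 961, 30, 2 and 7. For Tet3-/- against Tet3+/+ on day 3, where 0 of the 10 genes were called, there was 1 with a pseudocount of 5, 4 with DESeq2, 3 with only the compared groups, 1 with local centring and 1 with the replicate block. Over all genes this contrast gave 115 calls, 86 with edgeR, 67 with TMM scaling, 98 with the block, 223 with a pseudocount of 5, 347 with local centring, 664 with only the compared groups and 917 with DESeq2. Same-numbered samples showed little common deviation (correlations of -0.098 to 0.082 on day 3). The labels do not say whether they shared more than a number, and these correlations cannot settle it. The replicate block left 3 and 6 genes called in the other day 3 contrasts. No paired analysis was possible for the empty vector in Tet3+/+ because its columns carry no distinct numbers. Without the fold threshold, 9 and 9 genes were called with empty vector in Tet3m/m and Tet3-/- (45.6% and 53.2% of all genes), 2, 2 and 5 for Dnmt1 in Tet3+/+, Tet3m/m and Tet3-/- (5.59%, 10.2% and 13.4%), and 1 for the Dnmt1 effect in Tet3-/- minus Tet3+/+ (9.71%). With a replicate left out, the genes called ranged from 1 to 3 (Tet3m/m, day 3), 0 to 4 (Tet3-/-, day 3), 4 to 6 (Tet3-/- against Tet3m/m), 3 to 5 (Tet3-/-, empty vector), 0 to 1 (Dnmt1 in Tet3-/-) and 0 to 1 (Dnmt1 effect in Tet3-/- minus Tet3+/+). Calls over all genes moved as well. With 1 Tet3+/+ or Tet3m/m sample left out on day 3, they ranged from 1250 to 1692 (Tet3m/m) and 0 to 706 (Tet3-/-). Between Tet3-/- and Tet3m/m they ranged from 1152 to 2219. No value that changed sign was a called one. Local centring gave -0.082 for Utrn in Tet3m/m and -0.024 for Dag1 in Tet3-/- against Tet3m/m on day 3, 0.014 for Atp2a2 under Dnmt1 in Tet3m/m, and 0.023 for Dag1 and 0.027 for Utrn in the Dnmt1 effect in Tet3m/m minus Tet3+/+. Dag1 under Dnmt1 in Tet3-/- was 0.0070 with edgeR and 0.0072 with TMM scaling. With a replicate left out, day 3 values ran from -0.105 to 0.169 for Utrn in Tet3m/m, -0.041 to 0.450 for Des and -0.011 to 0.099 for Dag1 in Tet3-/- against Tet3m/m. Under Dnmt1 they ran from -0.037 to 0.025 for Bin1 in Tet3+/+, -0.041 to 0.021 for Sgcb and -0.038 to 0.017 for Atp2a2 in Tet3m/m, and -0.020 to 0.020 for Dag1 and -0.018 to 0.094 for Atp2a2 in Tet3-/-. For the Dnmt1 effect in Tet3m/m minus Tet3+/+ they ran from -0.308 to 0.231 for Hrc, -0.077 to 0.154 for Des, -0.424 to 0.145 for Cacna1c, -0.069 to 0.037 for Dag1 and -0.102 to 0.061 for Utrn, and in Tet3-/- minus Tet3+/+ from -0.109 to 0.0038 for Atp2a2. The cause was not tested. Cacna1c and Hrc have the lowest counts of the 10 genes. Values of Dag1 and Atp2a2, whose counts are among the highest, changed sign as well.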
